A study of Mus musculus and Homo sapiens with 40 samples.

Results

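ChIP-seq peaks were examined around 10 mouse genes of the stress response and of growth arrest: *Gadd45a*, *Gadd45b*, *Gadd45g*, *Atf3*, *Atf4*, *Ddit3*, *Trib3*, *Ppp1r15a*, *Sesn2* and *Cdkn1a*. They were chosen by name out of 21738 protein-coding genes on the standard chromosomes of the mm39 build. A locus was the GENCODE gene body with 50 kb on both sides. A peak was counted when its summit, the base of highest enrichment, lay in the locus. The 10 mouse peak lists of the series were used, and each was described by presence, width and rank.

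The members belong to connected circuits. In the integrated stress response, kinases that sense misfolded protein, amino acid shortage or other stress phosphorylate the translation factor eIF2α, which lowers protein synthesis overall and raises translation of the bZIP factor ATF4. ATF4 acts with C/EBP proteins at composite C/EBP-ATF sites and induces *Ddit3* (CHOP), *Atf3*, *Trib3*, *Sesn2* and *Ppp1r15a* (GADD34). The GADD45 proteins and the cyclin-dependent kinase inhibitor p21, encoded by *Cdkn1a*, are induced by genotoxic and other stress and are linked to arrest of the cell cycle.

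The cells were HPC-7, a mouse hematopoietic progenitor line with very little CEBPA of its own. They had been stably transduced with a constitutively expressed CEBPA transgene, either p42, the full-length protein, or p30, which lacks its amino-terminal end, fused to ERT2, an estrogen receptor fragment that holds the protein outside the nucleus until a tamoxifen derivative is given. All groups carried such a fusion. The sample labels do not name the derivative, which the methods of the study give before such experiments, and nothing says that a line was more than 1 transduced population, so isoform and line were the same variable. H3K27ac, a mark of active promoters and enhancers, was profiled in untreated p42 and p30 cells and after LPS at 100 ng/mL for 2 h, with 3 samples in each of the 4 groups. H3K4me1, a mark of enhancers, was profiled in 2 samples of each untreated line. CEBPA binding was profiled in untreated cells with anti-CEBPA and with anti-ER, which recognises the fused receptor fragment, in 1 sample of each line and antibody.

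Each histone list had been called on pooled samples and each CEBPA list on 1 library, and spread between replicates cannot be read from either, so lists are compared without p-values. The reads behind a list are unknown from the peak lists, and a longer list can hold more peaks in a locus for that reason alone. The H3K27ac lists held 107141 to 142419 peaks, the H3K4me1 lists 134658 and 168035, the anti-CEBPA lists 47517 (p42) and 31851 (p30), and the anti-ER lists 23248 (p42) and 34006 (p30). The labelled cell type was checked against marker genes. Promoter H3K27ac was called at 8 of 8 progenitor genes, among them *Kit*, *Cd34*, *Gata2* and *Runx1*, in all 4 H3K27ac lists. It was called in no list at *Alb* or *Myod1*, which mark other cell types. A peak list gives no level per cell, and fewer cells with a mark and less of the mark per cell cannot be told apart.

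Merging the 4 CEBPA lists gave 72 sites in the 10 loci, and 28 of them were present in all 4 lists. The 8 of these with the best mean rank lay at *Gadd45a*, *Ddit3*, *Atf3* and *Cdkn1a*. They are shown because they are the most strongly enriched sites that both isoforms and both antibodies had in common. The site at *Cdkn1a* 20345, which is 74 bp from the start of the neighbour *Rab44*, touches an annotated exon and is not printed. Each line gives the gene, the distance of the summit from the gene start in bp (negative upstream), the mm39 window of 100 bp around the summit and its plus-strand sequence. Capitals mark matches, on either strand, to TTGCNNAA (a C/EBP site with free middle bases), TGATGCAA (a composite C/EBP-ATF site, read as TTGCATCA on the other strand), TGACGTCA (a CRE) or TGANTCA (an AP-1 site). The palindrome TTGCGCAA was also searched and is a special case of TTGCNNAA.
*Gadd45a* -31987 (chr6:67046327-67046426): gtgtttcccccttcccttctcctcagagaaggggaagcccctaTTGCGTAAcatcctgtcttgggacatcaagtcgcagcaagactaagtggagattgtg
*Ddit3* -204 (chr10:127126306-127126405): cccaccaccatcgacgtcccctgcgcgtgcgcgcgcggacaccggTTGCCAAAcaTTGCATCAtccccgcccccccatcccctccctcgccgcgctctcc
*Cdkn1a* -14726 (chr17:29297962-29298061): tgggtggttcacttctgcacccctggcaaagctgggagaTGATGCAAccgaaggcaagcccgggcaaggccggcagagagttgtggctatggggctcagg
*Atf3* 57518 (chr1:190857969-190858068): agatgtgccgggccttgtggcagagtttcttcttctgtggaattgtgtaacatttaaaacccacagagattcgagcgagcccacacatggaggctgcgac
*Atf3* -18071 (chr1:190933558-190933657): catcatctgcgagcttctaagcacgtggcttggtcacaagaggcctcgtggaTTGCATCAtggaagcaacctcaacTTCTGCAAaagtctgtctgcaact
*Atf3* -65314 (chr1:190980801-190980900): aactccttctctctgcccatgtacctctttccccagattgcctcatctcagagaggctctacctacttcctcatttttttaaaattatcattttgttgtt
*Ddit3* 22352 (chr10:127148862-127148961): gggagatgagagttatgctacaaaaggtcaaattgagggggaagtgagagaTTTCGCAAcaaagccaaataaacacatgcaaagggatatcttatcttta
The window upstream of *Gadd45a* holds a C/EBP match, and the windows at the *Ddit3* promoter and in an intron of *Atf3* (-18071) each hold a C/EBP and a composite match. The window at *Cdkn1a* holds a composite match, and those at *Atf3* 57518 and -65314 hold no match. A match is a description of these letters, and a window without one says nothing about binding.

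The composite site recurred in member promoters. Within 250 bp upstream of the gene start it was found at 3 of the 10 members, *Gadd45g*, *Atf3* and *Ddit3*, and in 0.888% of the 21738 gene starts. At *Gadd45g* it spanned -104 to -97 and at *Atf3* -103 to -96. At *Ddit3* it lay at -199 to -192, beside a C/EBP match at -209 to -202 and an AP-1 match at -140 to -134. The C/EBP site with free middle bases was found at *Gadd45a* (-96 to -89) and *Ddit3*, against 9.34% of all starts, and the CRE at *Ppp1r15a* (-12 to -5), against 1.70%. The AP-1 site was found in 6.18% of all starts and the C/EBP palindrome in 0.166%, with no member holding the latter. The upstream windows of *Gadd45g* and *Atf3* are printed because each holds the composite match and touches no annotated exon, while the *Ddit3* match is in the site window above.
*Gadd45g* upstream (chr13:52000464-52000713, plus strand): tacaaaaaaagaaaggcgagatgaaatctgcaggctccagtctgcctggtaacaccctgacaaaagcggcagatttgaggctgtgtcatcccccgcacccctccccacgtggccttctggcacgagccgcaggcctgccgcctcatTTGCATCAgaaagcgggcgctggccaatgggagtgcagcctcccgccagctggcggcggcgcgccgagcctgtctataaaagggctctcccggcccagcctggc
*Atf3* upstream (chr1:190915538-190915787, minus strand): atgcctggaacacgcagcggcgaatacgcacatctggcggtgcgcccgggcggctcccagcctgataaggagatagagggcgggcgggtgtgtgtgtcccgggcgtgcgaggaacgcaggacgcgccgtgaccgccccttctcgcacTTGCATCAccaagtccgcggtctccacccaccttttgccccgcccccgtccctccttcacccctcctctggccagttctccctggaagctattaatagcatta
Of these promoters, *Ddit3* had a CEBPA site in all 4 lists, *Atf3* had 1 in the p30 anti-ER list, and *Gadd45g* had none. The *Atf3* site was a weak call, at 96.8% of its list, with its summit at 79 bp, downstream of the start and apart from the match.

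All 10 members had an H3K27ac peak over the promoter, taken as 1000 bp on both sides of the start of the canonical transcript, in each of the 4 H3K27ac lists. Over all protein-coding genes this held for 50.7% (p42 untreated), 50.2% (p42 LPS), 50.6% (p30 untreated) and 51.6% (p30 LPS). The strength of the peak was read as its rank by the authors' -log10 p, written as a percentage of the list, so that a low value is a well-placed peak. The median over the members was 6.92% in untreated p42 cells, 6.87% with LPS, 7.99% in untreated p30 cells and 7.28% with LPS. The medians over all genes with a promoter peak were 4.62%, 5.50%, 4.42% and 4.19%. *Cdkn1a*, *Ddit3* and *Atf4* stood at the top of the members, *Ppp1r15a* was next, and *Atf3* stood far below the others.

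**Figure D1:**
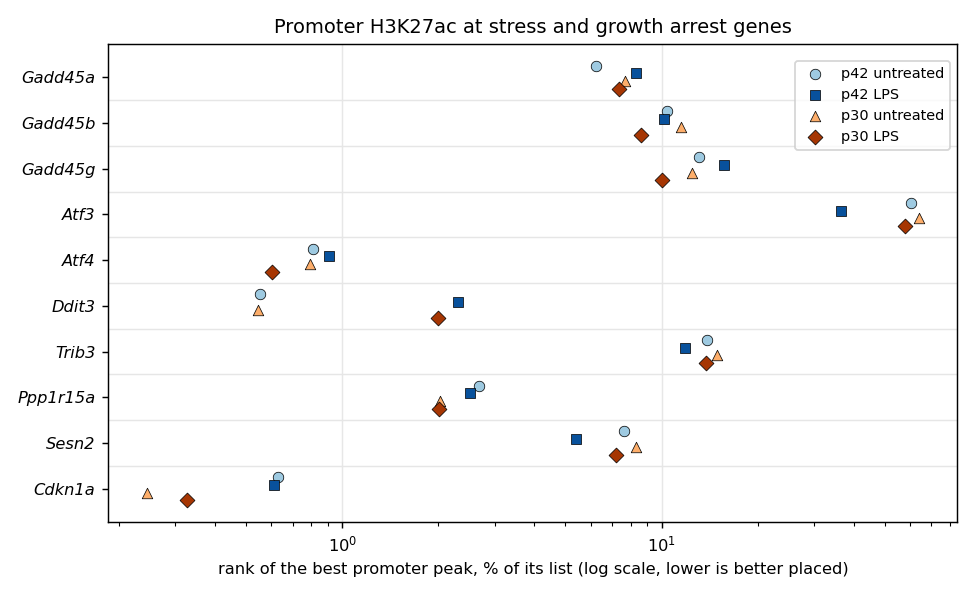
Rank of the best H3K27ac peak over each promoter, as a percentage of its list on a log scale, with 1 point for each of the 4 lists and no error because each list is a single call. Cdkn1a, Ddit3 and Atf4 lie lowest, Atf3 lies at 36.6% to 64.0%, and Ddit3 is the member whose LPS points are set apart from its untreated points in both lines.

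With LPS, *Ddit3* (chr10:127124268-127132163, plus strand) was the member whose best promoter peak lost most places. Its product CHOP is a C/EBP family member that dimerises with other C/EBP proteins. The peak ranked 715 of the list in untreated p42 cells and 2463 with LPS, and in p30 cells 758 untreated and 2847 with LPS. The rank percentage was thus 0.553% and 2.30% in p42 and 0.545% and 2.00% in p30, worse by more than 2 times in both lines. The caller's fold enrichment was 89.6 untreated and 47.0 with LPS for p42. For p30 the values were 77.2 and 54.3. Both LPS lists therefore held the lower value. A loss of at least 2 times was found for 1 of 10 members in each line and for 5.68% of 10756 genes in p42 and 1.81% of 10868 in p30. Another member passed 2 times in p30 under either of 2 other settings, *Cdkn1a* when ranked by fold (0.406% against 0.202%) and *Trib3* at the 5′ end of its gene record. No member gained 2 times with LPS, against 1.35% of genes in p42 and 3.34% in p30. The *Ddit3* peak was 8381 bp wide in untreated p42 cells, with its summit at -700, and a CEBPA site at -1290 lay 334 bp from the start of the neighbour *Mbd6*, so the peak cannot be given to *Ddit3* alone. Merged over the 4 lists, the region that held it ended upstream of the *Ddit3* start. A second region began just downstream of that start, with its summit at 377. It stood at 2.81% untreated and 3.95% with LPS in p42, and at 2.47% and 3.73% in p30. Its loss with LPS was thus short of 2 times in both lines.

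*Atf4* (chr15:80139372-80141745, plus strand) encodes the central effector of the integrated stress response and is regulated largely at translation. In p42 cells its promoter peak ranked 1048 untreated and 977 with LPS. In p30 cells it ranked 1102 and 858. These 4 ranks correspond to 0.602% to 0.912% of their lists, and the summit lay at 178 to 184 bp in every list. Promoter H3K27ac at *Atf4* was thus near the top of each list with or without LPS.

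*Atf3* (chr1:190902493-190950241, minus strand) encodes a bZIP factor that is among the early induced genes of many stress responses. Its promoter peak ranked 78183 untreated and 39212 with LPS in p42 cells, which is 60.4% and 36.6% of the list. In p30 cells it ranked 89026 (64.0%) and 82571 (58.0%). It was the weakest promoter of the set, and the p42 LPS list placed it best, with a fold of 4.22 against 2.97 untreated, while in p30 the fold was 2.90 with LPS and 2.86 untreated. The strongest H3K27ac peak of the locus lay elsewhere, 41293 bp from the start in untreated p42 cells, where it ranked 768. In the other lists it was 41278 to 41290 bp away and ranked 933 (p42 LPS), 484 (p30 untreated) and 1475 (p30 LPS). With the promoter widened to 2500 bp, the p30 LPS value of *Atf3* was 23.4%, 2.73 times better than untreated. At the 5′ end of the *Atf3* gene record, which lies upstream of the canonical start, no peak was called in untreated p42 cells, and the percentages were 68.3 (p42 LPS), 76.7 (p30 untreated) and 44.3 (p30 LPS).

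*Trib3* (chr2:152179337-152191958, minus strand) encodes a pseudokinase that binds ATF4 and CHOP, and *Ppp1r15a* (chr7:45172340-45175692, minus strand) the subunit that directs a phosphatase to eIF2α. The *Trib3* promoter peak stood at 13.8% untreated and 11.9% with LPS in p42, at 14.9% and 13.8% in p30, and was narrow, at 328 to 859 bp. That of *Ppp1r15a* stood at 2.67% and 2.52% of the p42 lists and 2.03% and 2.01% of the p30 lists, in the same order, with widths of 4301 to 4589 bp. *Sesn2* (chr4:132219335-132237815, minus strand), a stress-induced sestrin that restrains mTORC1, stood at 7.62% and 5.40% (p42) and at 8.32% and 7.22% (p30). In these 3 promoters the LPS peak was placed better than the untreated peak in both lines, by 1.01 to 1.41 times, short of 2 times in each case. At the 5′ end of the *Trib3* gene record in place of the canonical start, no peak was called in untreated p42 cells, and the p30 peak was placed worse with LPS, at 82.7% against 40.2%.

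The GADD45 genes, *Gadd45a* (chr6:67012070-67014441, minus strand), *Gadd45b* (chr10:80764523-80768038, plus strand) and *Gadd45g* (chr13:52000714-52002508, plus strand), had promoter peaks of middle rank. *Gadd45a* stood at 6.22% untreated and 8.35% with LPS in p42, and p30 cells had 7.66% and 7.35%. *Gadd45b*, the member of the family known for its induction by inflammatory and TGF-β signals, stood at 10.4% and 10.2% (p42) and at 11.5% and 8.65% (p30). *Gadd45g* stood at 13.1% and 15.7% (p42) and at 12.4% and 10.0% (p30). With LPS the peak of *Gadd45a* and that of *Gadd45g* was placed worse in p42 and better in p30, by at most 1.34 times.

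*Cdkn1a* (chr17:29309936-29319701, plus strand) had the best placed promoter peak of the set in p30 cells. In p42 cells it ranked 812 untreated and 653 with LPS, with folds of 65.6 and 68.1. In p30 cells it ranked 340 and 464, with folds of 95.6 and 90.1. Its width was 6989 to 7518 bp. Untreated, the p30 rank percentage (0.244%) was better than that of p42 (0.628%) by 2.57 times, the only such gain among the 10 members, against 2.65% of 10761 genes. No member was worse in p30 by 2 times untreated, against 2.29% of genes. With LPS no member differed by 2 times between the lines, against 9.55% of 10789 genes better and 1.07% worse in p30. Ranked by fold, *Cdkn1a* in untreated p30 cells was 6.03 times better than in p42. At the 5′ end of its gene record in place of the canonical start, the p30 peak was instead placed 1.22 times worse, at 6.09% against 5.01%.

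The amount of H3K27ac around the members was read as the summed width of the peaks in each locus. In p42 cells 1 of 10 loci, *Atf3*, held more with LPS than untreated (27784 against 25326 bp), and over 16799 genes this held for 16.6%. The ratio of LPS to untreated was lowest at *Trib3*, where it was 0.588 (11429 against 19441 bp), and at *Gadd45g*, where it was 0.709. The median ratio was 0.881 over the members and 0.837 over all genes. In p30 cells 6 of 10 loci held more with LPS, against 48.2% of 16877 genes: *Gadd45a*, *Gadd45b*, *Atf3*, *Ppp1r15a*, *Sesn2* and *Cdkn1a*. The largest gain was at *Gadd45b*, with 18911 bp untreated and 28642 bp with LPS, and the next at *Gadd45a*, with 15513 and 20334 bp. The median ratio was 1.02 over the members and 0.992 over all genes. The members thus followed the lists as a whole, which shrank with LPS in p42 and not in p30.

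At *Gadd45a*, *Gadd45b*, *Ppp1r15a*, *Sesn2* and *Cdkn1a* the lines went different ways, with less H3K27ac after LPS in p42 and more in p30. The share of all genes with this pattern was not counted, so it cannot be called particular to the members. Some of these changes were small, with an LPS to untreated ratio of 0.984 at *Cdkn1a* in p42 and 1.04 at *Ppp1r15a* in p30. At q under 1e-05 *Cdkn1a* held more with LPS in p42 too, and with 20 kb flanks *Ppp1r15a* no longer held more in p30. In p42 cells *Gadd45a* had 23482 bp untreated and 21165 bp with LPS, and *Gadd45b* had 23301 and 21528 bp. Untreated, these 2 loci held less in p30 than in p42, as did *Sesn2* (40905 against 48055 bp), while the other 7 members held more in p30, against 56.2% of 16877 genes. That count was 5 at q under 1e-05, with lists of equal length and with 100 kb flanks, and 6 with 20 kb flanks. *Atf4* was nearly level, with 22808 bp in p30 and 22575 bp in p42. With LPS 9 of 10 members held more in p30, all but *Gadd45a*, against 82.7% of 16915 genes. *Cdkn1a* had the most in every list. Its p42 values were 58678 bp untreated and 57730 bp with LPS, its p30 values 60192 and 67297 bp, and these made up 52.6% to 61.3% of the locus. The locus of a median gene was covered to 6.69% in untreated p42 cells, and that of the median member to 22.7%.

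**Figure D2:**
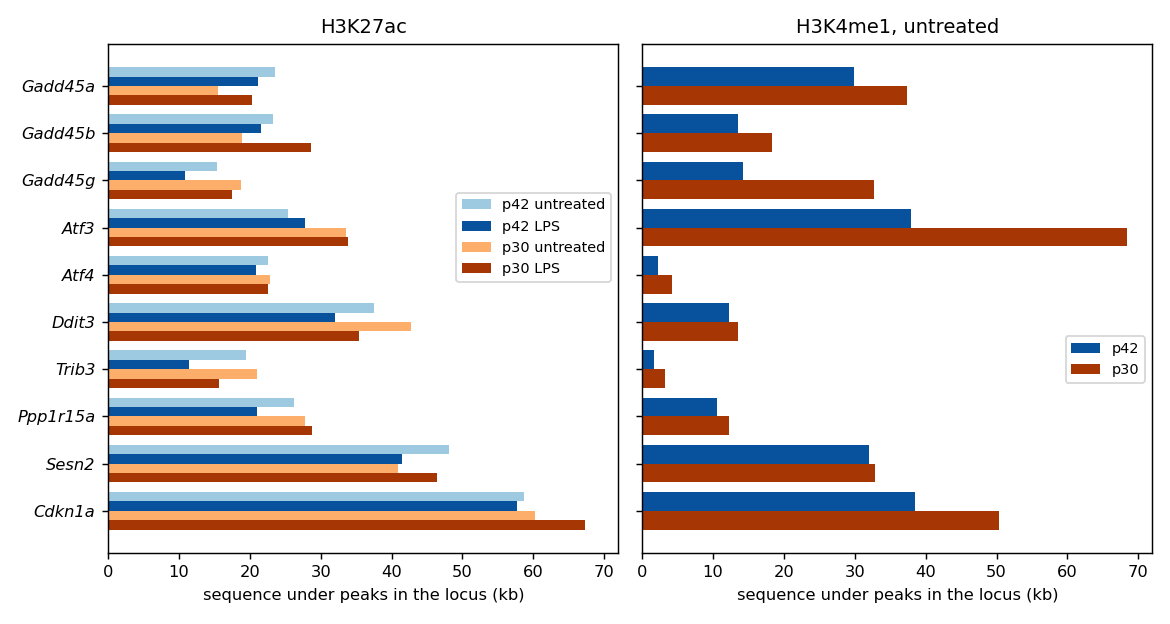
Sequence under H3K27ac peaks (left, 4 lists) and H3K4me1 peaks (right, 2 lists) in each locus, in kb, with 1 bar for each list and no error because each list is a single call. Cdkn1a has the longest H3K27ac bars, Gadd45b in p30 cells has 18911 bp untreated and 28642 bp with LPS, and every p30 H3K4me1 bar is longer than its p42 bar.

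Merged over the 4 lists, the loci held 331 H3K27ac regions. In p42 cells 159 were kept with LPS, 26 were gained and 60 lost, and in p30 cells 184 were kept, 78 gained and 39 lost. Gained regions made up 14.1% of the regions present with LPS in p42 and 29.8% in p30, beside 18.7% and 29.2% over all regions of the genome. Lost regions made up 27.4% of the untreated regions in p42 and 17.5% in p30, beside 37.9% and 29.3%. In p30 the gains were most numerous at *Gadd45b* (16), *Cdkn1a* (15), *Gadd45a* (10) and *Atf3* (10), whereas p42 gained 3, 2, 5 and 6 regions there. At *Ddit3* the lines stood in the opposite order, with 5 gained in p42 and 1 in p30.

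Some changes were common to the lines. Gained in both were 7 regions, 3 at *Gadd45b* (-14569, 1380 and 19125 bp from the start) and 1 each at *Gadd45a* (-5032), *Atf3* (-20332), *Sesn2* (-35180) and *Cdkn1a* (-23024). They were 210 to 599 bp wide and ranked at 37.1% to 94.1% of their LPS lists, so they were small and mostly weak peaks. Lost in both were 6 regions, 2 at *Ddit3* and 1 each at *Gadd45b*, *Trib3*, *Ppp1r15a* and *Sesn2*. Of the regions gained in p42, 26.9% were gained in both lines, and of those lost in p42, 10.0% were lost in both, beside 19.5% and 17.5% over all regions. Of the p30 regions the shares were 8.97% of those gained and 15.4% of those lost, beside 8.68% and 20.5%. Regions kept in both lines numbered 138.

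**Figure D3:**
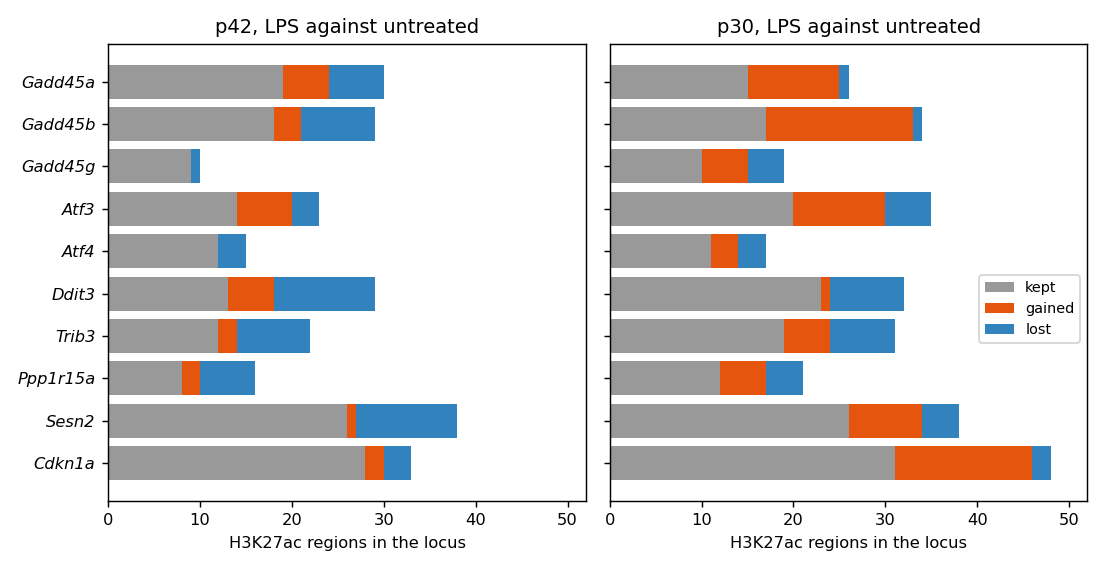
Number of merged H3K27ac regions in each locus that were kept, gained or lost with LPS, for p42 (left) and p30 (right). Gained segments total 26 in p42 and 78 in p30, and lost segments 60 and 39.

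H3K4me1 covered more of every member locus in p30 than in p42, 10 of 10, against 76% of 16212 genes. The p30 list was also the longer. The largest differences were at *Atf3*, with 68391 bp in p30 and 37857 bp in p42, and at *Gadd45g*, with 32655 and 14261 bp. At *Sesn2* the lines were nearly level, with 32888 and 31986 bp. The median ratio of p30 to p42 was 1.33 over the members and 1.31 over all genes. The least was at *Atf4* (2193 bp in p42, 4265 bp in p30) and *Trib3* (1603 and 3213 bp). With lists shortened to equal length by p, *Ddit3* and *Sesn2* no longer had more in p30. At q under 1e-05 the number of members with more in p30 was 7, without *Atf4*, *Ddit3* and *Sesn2*. It was 8 with 20 kb flanks and 10 with 100 kb flanks.

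H3K4me1 lay over the promoter of 7 members in each line, against 21.8% of genes in p42 and 28.4% in p30. *Gadd45a*, *Gadd45b*, *Gadd45g*, *Ppp1r15a*, *Sesn2* and *Cdkn1a* had it in both, *Ddit3* in p42 and *Atf3* in p30. At *Gadd45a* the best promoter peak ranked 490 in p30 (0.292%, 2164 bp wide) and 22100 in p42 (16.4%, 180 bp wide). At *Gadd45b* the order was the reverse, at 76.7% in p30 and 32.8% in p42, and likewise at *Gadd45g*, at 83.9% and 24.7%. *Cdkn1a* ranked 843 in p42 and 1970 in p30. The summits at *Gadd45a* lay apart, at -333 in p42 and 2427 in p30, so these were different peaks. The p30 peak ran from 953 to 3116 bp, so only its edge reached the promoter window and its summit lay outside. A p42 peak from 2273 to 3116 bp, with its summit at 2885 and wholly outside the window, overlapped the p30 peak. It ranked 2864 (2.13%, 844 bp wide), so the contrast in rank depended on the window edge.

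CEBPA was called around nearly all members. With anti-CEBPA, 10 of 10 loci held a p42 site and 9 of 10 a p30 site, all but *Ppp1r15a*, against 86.7% and 79.6% of genes. With anti-ER, 10 of 10 held a site in each line, against 70.5% (p42) and 79.6% (p30). A site in a locus of this size was therefore common over all genes. The numbers differed more. *Atf3*, the longest locus, held 12 anti-CEBPA sites in p42 and 9 in p30, *Gadd45a* held 6 and 5, *Cdkn1a* 6 and 4, and *Ddit3* 4 and 4. *Ppp1r15a* held 1 and 0. The median member had 3 sites in p42 and 3.5 in p30, and the median gene had 2 in each.

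Over promoters CEBPA sites were less common. Anti-CEBPA sites lay at 3 members in p42 (*Atf4*, *Ddit3* and *Trib3*) and 4 in p30 (these and *Sesn2*), against 8.34% and 8.31% of genes. Anti-ER sites lay at 4 members in p42 (*Gadd45b*, *Atf4*, *Ddit3* and *Trib3*) and 6 in p30 (these, *Atf3* and *Sesn2*), against 7.48% and 12.6%. Among genes with promoter H3K27ac in all 4 lists, as all members had, the 4 shares were higher, at 13.3%, 14.4%, 13.7% and 23.6% in the same order. *Atf4*, *Ddit3* and *Trib3*, which form the ATF4-CHOP-TRIB3 axis, thus carried a promoter site with each antibody in each line. Of the other promoter sites, *Gadd45b* stood at 95.7% (p42) and 32.4% (p30) of the anti-ER lists, and *Atf3* at 96.8% (p30). *Sesn2* stood at 94.7% of the p30 anti-CEBPA and 67.7% of the p30 anti-ER list. All but that of *Gadd45b* in p30 lay in the lower part of their lists.

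At *Ddit3* the promoter site at -204 ranked 3063 (p42) and 1199 (p30) among anti-CEBPA peaks, and 2900 and 1187 among anti-ER peaks. It was placed better in p30 with each antibody, at 3.76% against 6.45% and 3.49% against 12.5%. It is the window printed above with a C/EBP and a composite match. At *Trib3* the site at 19 bp likewise stood better in p30, at 21.6% against 46.7% with anti-CEBPA and 13.9% against 48.1% with anti-ER. At *Atf4* the site at 910 bp stood at 32.4% in p42 and 59.3% in p30 with anti-CEBPA. With anti-ER it ranked 4416 in p42 and 1747 in p30, the latter at 5.14%. The antibodies thus ordered the lines differently at *Atf4*.

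That split was general. Of the 28 sites in all 4 lists, 9 (32.1%, 95% Wilson interval 17.9 to 50.7) had the better rank percentage in p30 with anti-CEBPA and 22 (78.6%, 60.5 to 89.8) with anti-ER. Over all 13341 such sites the shares were 32.2% and 79.9%. Intervals here and below cover counting error over sites only. In each case the longer list was the line with the better percentage.

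**Figure D4:**
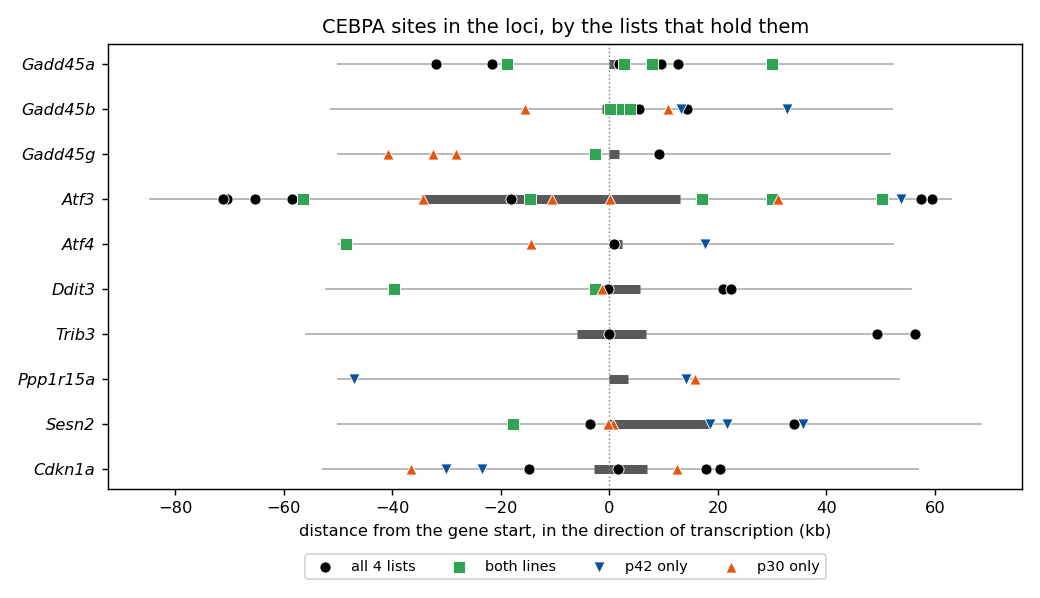
The 72 merged CEBPA sites by distance from the gene start in kb, on 1 row for each locus, with the locus as a thin line and the gene body as a thick line. Black circles mark the 28 sites in all 4 lists, green squares other sites found in both lines, blue triangles the 11 found in p42 alone and orange triangles the 16 found in p30 alone, and Gadd45a and Trib3 have no site of 1 line alone.

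Every site at *Gadd45a* (9) and *Trib3* (3) was called in both lines with at least 1 antibody. At *Ddit3* 5 of 6 were, at *Atf3* 12 of 17, at *Gadd45b* 5 of 9, at *Cdkn1a* 4 of 8, at *Sesn2* 3 of 8, at *Atf4* 2 of 4, at *Gadd45g* 2 of 5 and at *Ppp1r15a* 0 of 3. Over the loci 62.5% of sites were in both lines, beside 53.8% of the 63759 merged sites of the genome. Sites in all 4 lists made up 38.9% in the loci and 20.9% in the genome. Of sites in 1 line, 11 were called in p42 and 16 in p30, which is 15.3% and 22.2% of the 72. Over the genome the p42 share was the larger, at 28.4% against 17.7%. Of the 16 p30 sites, 14 were in the p30 anti-ER list alone, and of the 11 p42 sites 4 were in the p42 anti-CEBPA list alone. Over the genome these 2 kinds numbered 6722 and 15172. Each is the longer list of its antibody, so isoform and list length cannot be told apart in these shares.

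Of these, 2 in each line were seen with both antibodies, or 18.2% of the p42 and 12.5% of the p30 sites, beside 6.82% and 9.31% over the genome. In p30 and not p42 they were the site at -1290 of *Ddit3*, near *Mbd6*, and that at 584 of *Sesn2*. The *Sesn2* site stood at 94.7% of the anti-CEBPA and 75.7% of the anti-ER list. In p42 and not p30 they were the site at 32797 of *Gadd45b*, in an intron of *Gng7*, and that at -30191 of *Cdkn1a*. They stood at 78.6% and 66.7% of the anti-CEBPA list and at 82.7% and 93.8% of the anti-ER list. All 4 lay in the lower part of their lists, where presence rests on weak calls.

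By overlap of at least 1 bp, 32 of 43 p42 anti-CEBPA sites in the loci (74.4%, 59.8 to 85.1) were found in p30 and 32 of 35 p30 sites (91.4%, 77.6 to 97.0) in p42. With anti-ER, 44 of 52 p42 sites (84.6%, 72.5 to 92.0) were found in p30 and 42 of 59 p30 sites (71.2%, 58.6 to 81.2) in p42. Over the whole anti-CEBPA lists these shares were 55.3% and 82.5%. Over the whole anti-ER lists the p42 share was 84.1% and the p30 share 57.05%. The whole-list value lay below the interval of the loci for p42 anti-CEBPA and p30 anti-ER sites, and inside it for the other two. With equally long lists the p42 anti-CEBPA share in the loci was 90.3% and the p30 anti-ER share 88.1%. The p30 anti-CEBPA share was then 80% and the p42 anti-ER share 73.1%. Whole-list shares were not compared in that setting, so these values cannot be set against the whole-list shares above. Between antibodies, anti-CEBPA sites in the loci overlapped an anti-ER site of the same line in 86.0% of cases in p42 and 94.3% in p30, beside 38.1% and 63.3% over the whole lists. In the other direction the shares were 71.2% in p42 and 54.2% in p30, beside 78.0% and 59.1%.

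The best placed anti-CEBPA site of each locus was often the same in the lines. At *Gadd45a* it was the site at -31987, which ranked 248 in p42 and 297 in p30 with anti-CEBPA. Its anti-ER ranks were 475 and 466. It stood at 0.522% to 2.04% of the 4 lists, the highest of the 72 sites. At *Cdkn1a* it was the site beside *Rab44* in both lines, with ranks of 5199 (p42) and 1085 (p30), and the site at -14726 followed, with 5326 and 1643. At *Ddit3* it was the promoter site. At *Sesn2* it was the site at -3576, with ranks of 6435 and 6341. At *Gadd45b* it was the site at 5392 (11531 and 9531), at *Gadd45g* that at 9156 (14143 and 9947), at *Trib3* that at 56325, which is 6061 bp from the start of *Tbc1d20* (9068 and 3528), and at *Atf4* that at 910 (15385 and 18875). At *Atf3* it was the site at -58446 in p42 (2560) and that at -18071, in an intron, in p30 (2076). At *Ppp1r15a* the p42 site at 14178, in an intron of *Tulp2*, ranked 39911, at 84.0% of the list.

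CEBPA sites in the loci lay under H3K27ac more often than in the genome. Of the 72 summits, 44 (61.1%) lay in an H3K27ac peak of untreated p42 cells, 38 with LPS, 35 in untreated p30 cells and 38 with LPS. Over all merged sites the shares were 25.5%, 23.9%, 23.4% and 23.9%. By any overlap of the site with a peak, the 4 counts were 48, 50, 45 and 51 in the same order. The shares over all merged sites were then 31.5%, 30.0%, 28.1% and 28.9%. The lower p42 count with LPS was thus not seen by overlap. The loci also had more H3K27ac than the median locus, as given above, and the part this played was not tested. At *Gadd45a* the lines differed most, with 8 of 9 summits under H3K27ac in untreated p42 cells and 2 of 9 in untreated p30 cells, and with LPS 5 of 9 and 4 of 9. Counted by any overlap of the site with a peak, they were 8 and 4 untreated and 7 and 6 with LPS, so part of the gap lay at peak edges.

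The strongest *Gadd45a* site showed such an edge. In p42 its summit lay within an H3K27ac peak untreated (1521 bp wide, rank 10217) and with LPS (1966 bp, rank 8957). In p30 the nearest peak ended 50 bp short of it untreated (1070 bp, rank 16462) and 47 bp short with LPS (1076 bp, rank 15147). The fold at those summits was 20.4 and 21.2 in p42 and 10.4 and 12.6 in p30. The flanking H3K27ac was thus present in both lines and placed lower in p30. At 5 further sites, at 7832, 9490, 12595, -18867 and -21705 bp, H3K27ac was called at the summit in untreated p42 cells and not in untreated p30 cells. Of these the sites at 7832 and -18867 had it in p30 cells with LPS. The untreated p42 peak over 7832 and 9490 stood at 16.5% of its list, that over -18867 at 11.2% and that over 12595 at 49.4%. The peak over -21705 stood at 92.0%, a weak call. Near -18867 an untreated p30 peak at 21.1% ended at -18925, so this contrast too lay at a peak edge. CEBPA was called in both lines at each of the 5 with at least 1 antibody. Anti-CEBPA called the site at 7832 in p42 alone and that at -18867 in neither line. With anti-CEBPA the sites at 9490, 12595 and -21705 stood at 10.5%, 5.33% and 11.8% in p42. In p30 they stood lower, at 51.4%, 9.28% and 34.5%. With anti-ER the sites at 9490 and -21705 were placed better in p42, and those at 7832, 12595 and -18867 in p30.

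**Figure D5:**
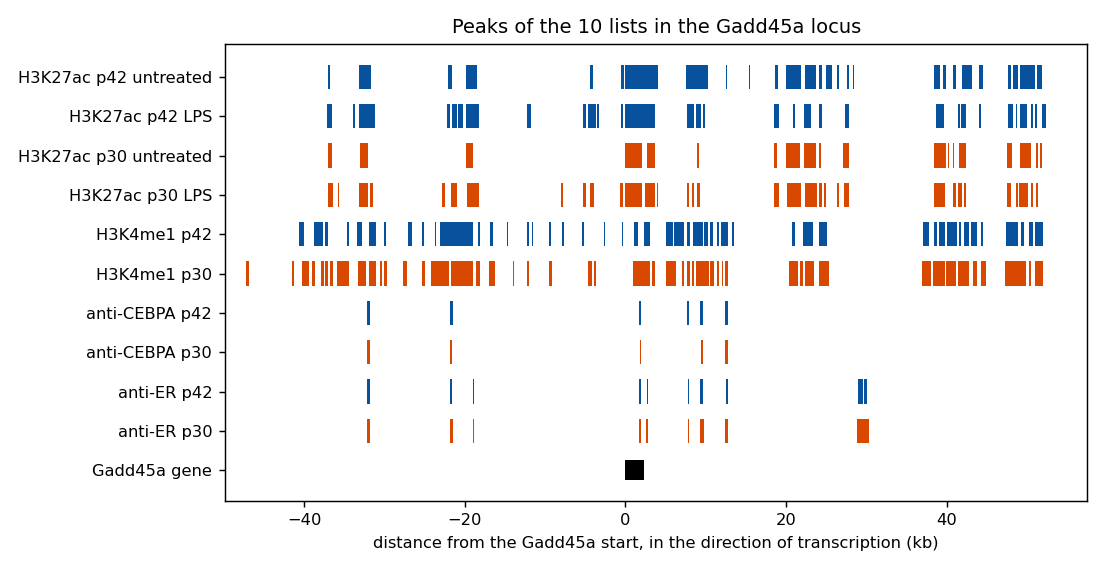
Peaks of the 10 lists in the Gadd45a locus by distance from the gene start in kb, drawn to scale, with p42 in blue, p30 in orange and the gene in black. Each CEBPA site was called in both lines with at least 1 antibody, but anti-CEBPA called that at 7832 bp in p42 alone. With anti-CEBPA the site at 9490 bp stood at 10.5% in p42 and 51.4% in p30. Between 7 and 11 kb downstream H3K27ac is broad in untreated p42 cells and a narrow peak in untreated p30 cells.

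H3K4me1 lay at 21 of the 72 summits in p42 and 33 in p30 (29.2% and 45.8%), beside 12.9% and 17.1% over all sites. At *Atf3* it lay at 6 of 17 sites in p42 and 12 of 17 in p30, and at *Gadd45g* at 1 and 4 of 5. At *Sesn2* it lay at 3 of 8 in p42 and 1 of 8 in p30. Counted by any overlap of the site with a peak, the totals were 38 in p42 and 47 in p30, beside 22.3% and 24.4% over all sites. By that count *Atf3* had 10 and 15 and *Gadd45g* 4 and 5. *Sesn2* had 4 in p42 and 5 in p30, so its order depended on peak edges. At *Atf4* and *Ppp1r15a* no site had it in either line.

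The composite C/EBP-ATF site was also frequent at the sites themselves. Within 100 bp around the summit it was found in 11 of 43 p42 anti-CEBPA sites of the loci (25.6%, 14.9 to 40.2) and in 10 of 35 p30 sites (28.6%, 16.3 to 45.1). Over the whole lists it was found in 8.90% and 9.52%. With anti-ER it was 17.3% and 16.9%, beside 5.62% and 5.95%. The C/EBP site with free middle bases was found in 34.9% (p42) and 28.6% (p30) of the anti-CEBPA sites, beside 44.3% and 47.6%. These lists share most of their sites, so the 4 shares are not separate observations. The CRE was found in none of the sites of the 4 lists within the loci, and in at most 0.173% of any of the whole lists.

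The 28 other genes of these pathways, which were listed with earlier results of these data known, resembled the members in part. Promoter H3K27ac was called at 25 of them untreated in each line, at 26 in p42 cells with LPS and at 25 in p30 cells with LPS. Over all genes the shares were 50.2% to 51.6%. *Asns* and *Chac1*, which are ATF4 targets, had none in any list. Promoter anti-CEBPA sites lay at 5 in p42 and 6 in p30, against 8.34% and 8.31% of genes. Anti-ER sites lay at 7 and 11, against 7.48% and 12.6%. In p42 cells 4 of the 28 loci held more H3K27ac with LPS, and in p30 cells 20 did, against 16.6% and 48.2% of genes. Untreated, 10 of the 28 held more in p30 than in p42, against 56.2% of genes and 7 of the 10 members. The most anti-CEBPA sites lay at *Atf6*, an ER stress sensor, with 12 in p42 and 9 in p30. *Ern1*, which encodes the sensor IRE1α, had 8 and 7. *Eif2ak2* (PKR) had 7 and 3, *Cebpg* 7 and 3, and *Eif2ak4* (GCN2) 6 and 8.

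Promoter sites in 1 line alone were found in 6 of these genes, counted for each antibody separately. With anti-CEBPA, *Atf5* had one in p30. With anti-ER, *Atf5* had one in p42, and *Xbp1*, *Hspa5*, *Nupr1*, *Trp53* and *Mdm2* had one in p30. For *Xbp1* anti-CEBPA had called a promoter site in both lines, at 70.6% in p42 and 62.5% in p30. The anti-ER sites stood at 45.8% to 97.7% of their lists, so these too were mostly weak calls.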

How the data were processed

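Per the methods of the study and the submitters' processing notes, reads were trimmed with Trim Galore 0.6.6 and aligned to mm39 with Bowtie2, and Picard-marked duplicates were left out. MACS2 then called narrow peaks relative to input. The deposited lists give for each peak a fold enrichment at the summit (a ratio over local background) and the caller's −log10 p and −log10 q values. The authors called histone lists on pooled samples and CEBPA lists on 1 library each, at a q of about 0.05. The anti-CEBPA lists do not carry the mark of the others that the caller's shift model was off, so their settings may differ. Depth is unknown from these lists. The inputs and the human ATF4 list were not used here. Part of the marker check is not reported here.

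Peaks on the 19 autosomes, X and Y were analysed with Python 3.11.15, numpy 2.4.6, pandas 2.3.3 and scipy 1.17.1, and figures were drawn with matplotlib 3.10.9. Loci and promoters came from GENCODE vM39, with gene starts from the Ensembl canonical transcript and the longer of 2 gene records for *Ddit3*. Sequences were read from GRCm39, the same assembly as mm39. Lists shared a site when peaks overlapped by at least 1 bp, and a promoter rank was called changed at 2 times. Shares of sites carry Wilson intervals. On simulated peaks, 400 of 400 locus counts, 400 of 400 promoter peaks, 2000 of 2000 planted overlaps and 200 of 200 planted rank changes were recovered, with 0 of 18206 false overlaps and 19 of 1476 other genes called changed in rank.

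Every member is described. Among other pathway genes, those named had the most anti-CEBPA sites in a line (the top 3) or a promoter site of an antibody in 1 line alone. Sites named by rule are the best anti-CEBPA site of each locus and line and those found with both antibodies in 1 line only. Sequences are the 8 sites of best mean rank in all 4 lists, less any touching an exon. The *Gadd45a* sites without p30 H3K27ac, and the upstream windows, were chosen after their values were seen. Members, lists and rules were chosen with earlier results of these data known. Alternatives tried were a stricter q, equal list lengths, other locus and promoter sizes, rank by fold, sharing by summit distance and other background genes.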

Additional observations from a re-analysis of the deposited data

How the results depend on the processing

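Of 92 repeated counts and shares, 78 stayed within 1.5 times of the reported value, or within its interval for a share, and 14 did not. With peaks at q under 1e-05, 2 loci (*Atf3* and *Cdkn1a*) held more H3K27ac with LPS in p42, in place of 1. With a 2500 bp promoter, 1 member (*Atf3*, 2.73 times) gained rank with LPS in p30, in place of 0. Ranked by fold, 2 members (*Ddit3* and *Cdkn1a*) lost 2 times with LPS in p30, in place of 1. With lists shortened to equal length by p, the share of p42 anti-CEBPA sites found in p30 was 90.3% and that of p30 anti-ER sites found in p42 was 88.1%. In the same setting the share of p42 anti-CEBPA sites with an anti-ER site was 96.8%, and the reverse share was 57.7% in p42 and 73.8% in p30. With 20 kb flanks, the share of p30 anti-CEBPA sites that overlapped anti-ER peaks was 100%. Against the 10593 genes with promoter H3K27ac in all 4 lists, the background of promoter sites rose to 13.3% (p42) and 14.4% (p30) for anti-CEBPA, and for anti-ER it was 13.7% and 23.6%.

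Alternatives chosen after seeing the data were the promoter at the 5′ end of the gene record and counting a site under H3K27ac or H3K4me1 by any overlap. With the first, the advantage of p30 over p42 at *Cdkn1a* turned from 2.57 to 0.822 times, and *Atf3* with LPS in p30 was 1.73 times better, against 1.10. *Trib3* with LPS in p30 turned from 1.08 to 0.487 times, which made 2 members with a loss of 2 times there. The loss of the best *Ddit3* promoter peak with LPS stayed at 4.16 times in p42 and 3.67 times in p30. With any overlap, *Gadd45a* sites under H3K27ac in untreated p30 cells were 4 in place of 2. The causes were not tested.

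No paired analysis was possible because each histone list was called on pooled samples and each CEBPA list on 1 library. Leaving out a replicate was likewise not possible. The lists do not give read depth, so a missing weak peak cannot be told apart from a shallower library.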
